A study of Arabidopsis thaliana with 25 samples.

Results

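The root transcriptomes of the phosphate-transport mutant phf1 and of the wild type Col-0 were compared over 4 soil phosphorus (P) regimes. All 11 phf1 and all 11 Col-0 root libraries entered, 22 of the 25 root libraries of the series, and the genotype difference was estimated with the regime as a covariate. The comparison asks which differences between the genotypes hold whatever the P supply of the soil. It therefore leaves differences seen in a single regime aside.

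Both genotypes of Arabidopsis thaliana grew for 8 weeks in a greenhouse with 6 hours of light a day, in soil from a long-term field trial with low, medium or high P fertilization. In the fourth regime, low+P, pots of low P soil received 12.6 mg P each. Each genotype had 3 libraries in low, 3 in medium and 3 in high P, with 2 more in low+P. The mutant is in the Col-0 background and carries no other change named in the labels, and its allele is not given in the sources used here. According to the methods, 1 root system was taken for RNA from each replicate. The deposited columns carry the group but neither the replicate nor the field plot, so libraries are called A, B and C within a group, and the letters pair nothing. The labels place most pots of both genotypes on shared field plots. They also place low+P pots on plots used for low P, so these regimes did not have separate soils. No column could be tied to a plot, so libraries were treated as unpaired. P-values therefore measure the spread between these libraries.

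PHF1 (PHOSPHATE TRANSPORTER TRAFFIC FACILITATOR1, AT3G52190) is a protein of the endoplasmic reticulum (ER) related to SEC12, the activator of the SAR1 GTPase in COPII vesicle formation. PHT1 phosphate transporters need it to leave the ER and reach the plasma membrane. When phosphate is short, the transcription factor PHR1 and its relative PHL1 switch on the phosphate starvation response (PSR), which includes PHT1 transporters, SPX1, phosphatases, lipid-remodelling enzymes and the non-coding RNAs IPS1 and At4. In sterile culture phf1 is known for a PSR that is on without starvation.

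The libraries held between 2368981 and 7408960 counts, with a median of 4592380.5. The median was 4024801 in Col-0 and 5334911 in phf1, with overlapping ranges. Levels are given as CPM, the counts of a gene scaled to the same total in every library. Genes were called changed by the quasi-likelihood test of edgeR, run over 18429 genes, where the Benjamini-Hochberg adjusted p was under 0.1. The biological coefficient of variation was 0.424. Log2 fold changes are phf1 against Col-0, averaged over the regimes, with their standard errors.

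PHF1 itself was transcribed in both genotypes. Its level ran from 14.8 to 46.9 CPM in Col-0 (median 22) and from 9.0 to 29.1 CPM in phf1 (median 16.9), so the genotypes overlapped. The log2 fold change was -0.40 (SE 0.22, adjusted p = 0.47, edgeR), and an exact two-sided permutation test within regimes gave a difference of -0.43 in log2 CPM with p = 0.0661 over 48000 arrangements. By regime the log2 fold change was -1.02 in low, -0.24 in medium, -0.22 in high and, for low+P, 0.02. The transcript level of PHF1 thus does not separate the libraries by their labels and does not check them.

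**Figure D1:**
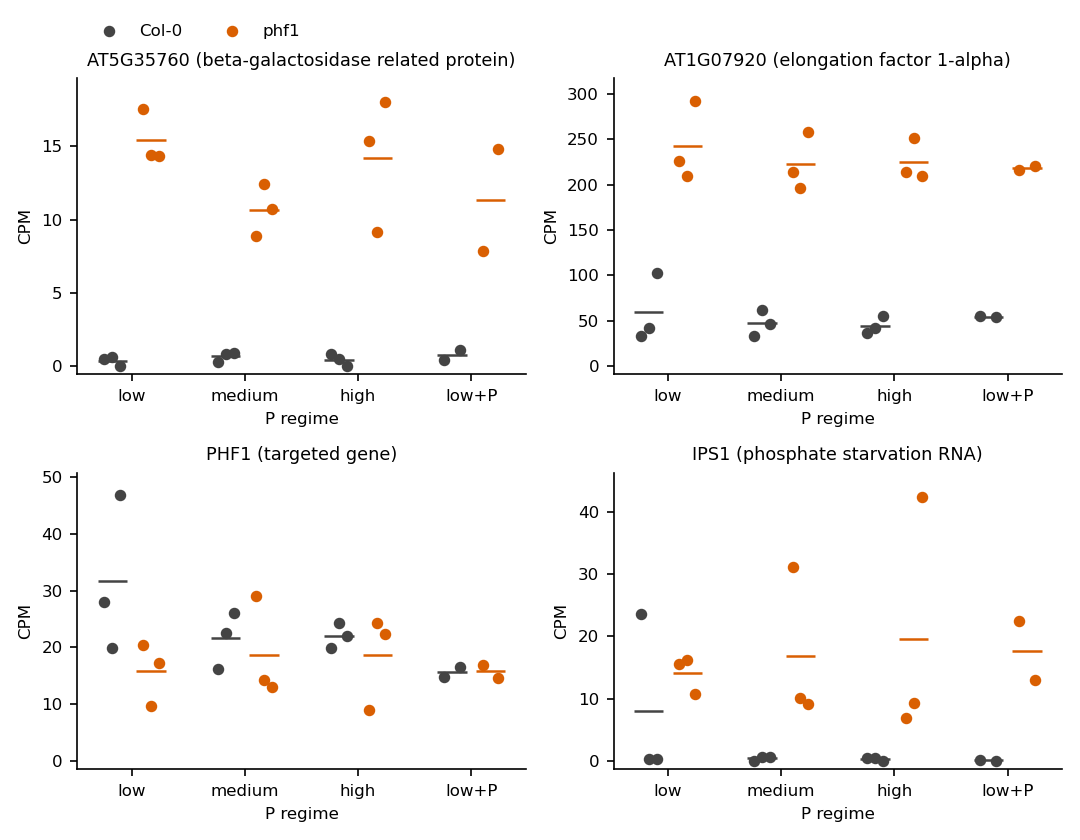
CPM of AT5G35760, AT1G07920, PHF1 and IPS1 in each of the 22 libraries by P regime, with Col-0 in grey and phf1 in orange, where points are libraries and bars are group means. AT5G35760 and AT1G07920 separate the genotypes in every regime, PHF1 does not, and IPS1 does in every library but Col-0 low P library A at 23.6 CPM.

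Averaged over the regimes, 5 of 18429 genes (0.0271%) passed the test. Higher in phf1 were 2 genes (0.0109%), AT5G35760 and AT1G07920, and lower were 3 (0.0163%), PUB19, CPN10 and AT1G70600. All 5 had the same direction in each of the 4 regimes. AT5G35760 and AT1G07920 stayed called when any 1 regime was left out, and PUB19, CPN10 and AT1G70600 did not. The 11 phf1 and 11 Col-0 libraries did not overlap for 2 genes that were higher (0.0109%), which were again AT5G35760 and AT1G07920, and for 0 genes that were lower.

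AT5G35760, annotated as a beta-galactosidase related protein, showed the steepest difference of the 5 called genes. In Col-0 it was at 0.497, 0.613 and 0 CPM in low P, 0.265, 0.816 and 0.901 in medium P, 0.844, 0.455 and 0 in high P, and 0.405 and 1.1 in low+P. In phf1 it was at 17.5, 14.4 and 14.4 CPM in low P, 8.86, 12.4 and 10.7 in medium P, 15.4, 9.17 and 18.0 in high P, and 7.85 and 14.8 in low+P. The gene was thus near zero in every Col-0 library, with 0 to 6 reads each, and present in every phf1 library, with 25 to 90 reads.

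The log2 fold change of AT5G35760 was 4.49 (SE 0.33), or 22.5-fold, with an adjusted p of 2.89e-07 in edgeR. Within the regimes it was 5.27 in low, 3.90 in medium, 5.05 in high P and 3.97 in low+P. Of its exonic 50-base stretches 2.02% also occur elsewhere in the TAIR10.1 genome. Among the 3 phr1 phl1 libraries outside the comparison it was at 0.585 and 0 CPM in low P and at 9.72 CPM in the one labelled phr1 phl1 low+P. PHR1, one of the genes that double mutant should lack, was at 31.9 and 37.9 CPM in the low P libraries of that genotype and at 73.6 CPM in the one labelled phr1 phl1 low+P, where Col-0 ranged from 49.0 to 74.3 and phf1 from 58.4 to 77.9 CPM.

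AT1G07920 is 1 of 4 genes for translation elongation factor 1-alpha, which brings aminoacyl-tRNA to the ribosome. In Col-0 it was at 33.3, 42.3 and 103 CPM in low P, 33.7, 62.0 and 46.7 in medium P, 36.3, 41.7 and 54.8 in high P, and 55.1 and 53.8 in low+P. In phf1 it was at 226, 209.8 and 292 CPM in low P, 214, 197 and 258 in medium P, 214, 252 and 210.0 in high P, and 216 and 221 in low+P. The Col-0 maximum of 103 CPM, in library C of low P, lay below the phf1 minimum of 197.

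The log2 fold change of AT1G07920 was 2.16 (SE 0.18), or 4.46-fold, with an adjusted p of 1.02e-06 in edgeR, and it was 1.97, 2.21, 2.4 and 2.01 in low, medium and high P and low+P. Of its exonic 50-base stretches 67.2% also occur elsewhere in the genome, and how the counting treated reads with several positions is not given in the sources used here, so its level is uncertain. The other copies did not pass the test, with log2 fold changes of 0.36 for AT1G07930 (adjusted p = 0.33), -0.05 for AT1G07940 (adjusted p = 0.93) and -0.31 for AT5G60390 (adjusted p = 0.44) in edgeR. The sign for AT1G07940 turned in 6 of the alternative settings and with 2 of the single libraries left out. Counts of the 4 genes summed to between 2342.5 and 4492 CPM in Col-0 and between 2367 and 3864 CPM in phf1. The share of AT1G07920 in that sum was 1.3% to 2.29% in Col-0 and 6.95% to 9.03% in phf1. AT1G07920 had a mean of 51.1 CPM in Col-0 and 228 CPM in phf1, while the sum had an SD of 814 and 457 CPM. A rise of that size could thus not be seen in the sum. Whether more RNA of this copy or another assignment of reads made the difference was not tested.

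**Figure D2:**
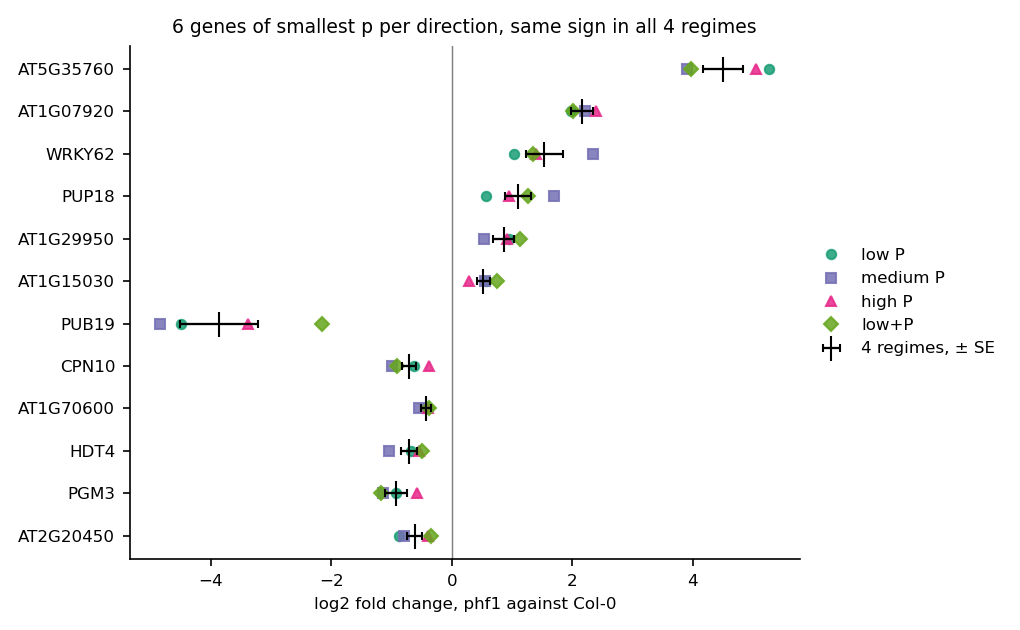
Log2 fold change of phf1 against Col-0 for the 6 genes of smallest p in each direction that kept 1 sign over the regimes, with a coloured symbol for each regime and a black bar for the estimate over all 4 regimes with its SE. AT5G35760 lies between 3.90 and 5.27 in the 4 regimes and AT1G07920 between 1.97 and 2.4, while PUB19 spreads from -4.84 to -2.15.

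PUB19, a U-box ubiquitin ligase known as a negative regulator of abscisic acid and drought responses, fell. In Col-0 it was at 3.73, 3.07 and 0.647 CPM in low P, 45.9, 32.7 and 12.1 in medium P, 0.844, 5.47 and 24.5 in high P, and 2.56 and 0.72 in low+P. In phf1 its lowest, median and highest levels were 0, 0.375 and 2.48 CPM. The genotypes did not overlap in low, medium and low+P but did in high P, where library A of Col-0 was at 0.844 CPM. The log2 fold change was -3.87 (SE 0.65, adjusted p = 0.046, edgeR).

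CPN10, chaperonin 10, a co-chaperonin of mitochondrial protein folding, was at 46.9 to 72.0 CPM in Col-0 (median 61) and at 23.3 to 54.3 CPM in phf1 (median 36). Its log2 fold change was -0.71 (SE 0.12, adjusted p = 0.046, edgeR), and the groups overlapped only in high P. It overlaps a neighbouring gene on the same strand in TAIR10.1, so some reads may belong to AT1G14990. AT1G70600, a ribosomal protein of the L18e/L15 family, was at 154 to 248 CPM in Col-0 and 119 to 185 CPM in phf1. Its log2 fold change was -0.44 (SE 0.08, adjusted p = 0.092, edgeR), between -0.54 and -0.39 in the 4 regimes, and the genotypes did not overlap within any regime.

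These 3 calls were not stable, and each was lost when any of several single libraries was left out. Over all settings the log2 fold change ran from -0.83 to -0.60 for CPN10 and from -0.47 to -0.40 for AT1G70600. With each of the 22 libraries left out in turn, PUB19 stayed called in 14 fits, CPN10 in 12 and AT1G70600 in 6, against all 22 for AT5G35760 and AT1G07920. PUB19 lost its call without Col-0 medium A (adjusted p = 0.11), high C (0.21) or low+P A (0.13), or without phf1 medium A (0.1005), medium B (0.14), high A (0.1017), high C (0.12) or low+P B (0.1032). CPN10 lost its call without Col-0 low C (0.11), medium A (0.11), high C (0.19) or low+P A (0.13), or without phf1 medium A (0.1005), medium B (0.14), medium C (0.12), high C (0.12), low+P A (0.13) or low+P B (0.11). AT1G70600 kept its call only without Col-0 low A, medium B, high A or high B or phf1 low C or high B, and its adjusted p was 0.12 to 0.21 without any other library. Without the medium regime the adjusted p of all 3 was 0.77 in edgeR.

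Next to the threshold stood 7 more genes with 1 direction in every regime, none of which passed in edgeR. WRKY62, a transcription factor of the defence-related WRKY family, was at 7.39 to 65.1 CPM in Col-0 and 36.5 to 155 CPM in phf1 (log2 fold change 1.53, SE 0.30, adjusted p = 0.11). PUP18, a purine permease, was at 13.3 to 49.6 CPM in Col-0 and 48.8 to 96.2 CPM in phf1 (1.1, SE 0.22, adjusted p = 0.11), and its genotypes did not overlap within any regime. AT1G29950, a bHLH protein, and AT1G15030, a DUF789 protein, had log2 fold changes of 0.86 and 0.52 (adjusted p = 0.13 for both). On the lower side were HDT4, a plant-type histone deacetylase, at -0.71 (adjusted p = 0.11), PGM3, a cytosolic phosphoglucomutase, at -0.93 (adjusted p = 0.11), and AT2G20450, ribosomal protein L14, at -0.62 (adjusted p = 0.11).

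Groups that did not overlap within any of the 4 regimes were found for 4 genes on the higher side (0.0217%) and 2 on the lower side (0.0109%). On the higher side these were AT5G35760, AT1G07920, PUP18 and AT3G50190, a DUF247 protein with a log2 fold change of 0.83 (adjusted p = 0.17, edgeR). On the lower side they were AT1G70600 and AT1G17160, a pfkB-like carbohydrate kinase with a log2 fold change of -0.44 (adjusted p = 0.15, edgeR). AT3G50190 and AT1G17160 were picked after their values were seen.

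At an unadjusted p below 0.05, edgeR had 1062 genes higher (5.76%) and 1166 lower (6.33%) in phf1, 2228 in all (12.1%). Of the tested genes 1936 (10.5%) were higher and 2048 (11.1%) lower in all 4 regimes, and 1694 (9.19%) both kept 1 direction and had such a p. The number called depended on the tool: DESeq2 called 586 of 19838 genes (2.95%), 279 higher (1.41%) and 307 lower (1.55%), and all 5 edgeR genes were among them. No gene had a genotype difference that depended on the regime at an adjusted p below 0.1 in edgeR (0 of 18429, 0%), with a smallest adjusted p of 0.18 and 621 genes (3.37%) at an unadjusted p below 0.05. For that interaction the likelihood ratio test of DESeq2 called 14.

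Phosphate genes were described by lists, none of whose members passed the test in edgeR (0 called over all listed genes). Over all lists, those on other processes included, DESeq2 called 43 genes, of which 22 were photosynthesis genes, where it called 2.95% of all genes. Among the PSR markers it called 8 higher and 3 lower, against 1.41% and 1.55% of all genes. Over all tested genes the median log2 fold change was -0.01 and 9063 (49.2%) were on the higher and 9366 (50.8%) on the lower side, which is the background for each list.

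**Figure D3:**
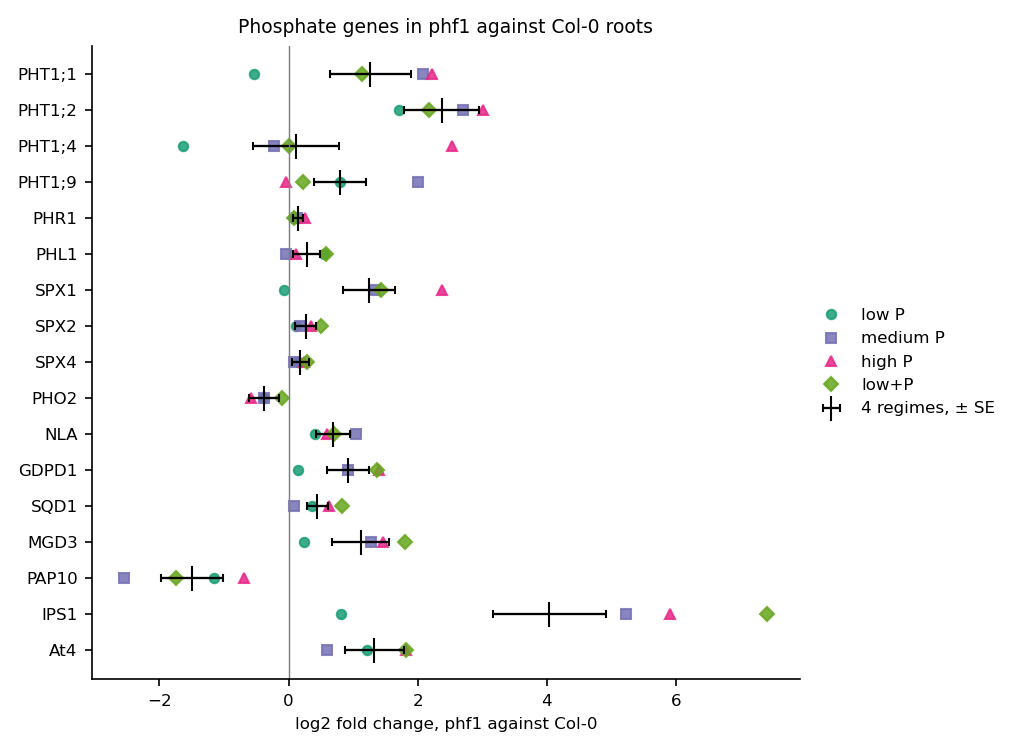
Log2 fold change of phf1 against Col-0 for PHT1 transporters, PSR regulators, lipid-remodelling enzymes, the phosphatase PAP10 and the RNAs IPS1 and At4, with a coloured symbol for each regime and a black bar for the estimate over all 4 regimes with its SE. PHT1;2 lies between 1.71 and 3.01 and IPS1 is above zero in every regime, while PHT1;1, PHT1;4 and SPX1 are below zero in low P.

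Of 9 PHT1 transporters, which take phosphate up at the plasma membrane and are the cargo of PHF1, 4 had enough counts to be tested. All 4 had a positive log2 fold change, and 1 had an unadjusted p below 0.05 (25%, against 5.76% of all genes on the higher side). Only PHT1;2 was positive in all 4 regimes. PHT1;2 was at 4.97, 2.76 and 2.91 CPM in low P, 0, 0.816 and 3.60 in medium P, 2.53, 0 and 0.36 in high P, and 0.405 and 1.1 in low+P of Col-0. In phf1 it was at 16.9, 1.80 and 15.8, at 18.4, 5.65 and 6.56, at 3.19, 13.1 and 4.37, and at 6.45 and 0.209 CPM in the same regimes. The groups overlapped in the low P and low+P regimes.

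The log2 fold change of PHT1;2 was 2.37 (SE 0.59, adjusted p = 0.16 in edgeR and 0.0084 in DESeq2). It was 1.71, 2.70, 3.01 and 2.18 in low, medium and high P and low+P. PHT1;2 shares 45.6% of its exonic 50-base stretches with other positions in the genome and PHT1;1 42.5%, so reads of these neighbours may be split between them. PHT1;1 had a log2 fold change of 1.27 (adjusted p = 0.43, edgeR) and was -0.53 in low P. PHT1;9 was at 0.79 and PHT1;4 at 0.11, the latter with a sign that turned in 4 of the alternative settings and with 7 of the single libraries left out.

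Of 12 regulators of the PSR and of phosphate homeostasis, 11 were tested and 10 lay on the higher side. At an unadjusted p below 0.05 there were 2, both higher (18.2%, against 5.76% of all genes). In all 4 regimes 4 were higher and 1 was lower. SPX1, a sensor protein that binds PHR1 and whose transcript is a common marker of starvation, ran from 7.18 to 117 CPM in Col-0 (median 15.3) and from 27.2 to 115 CPM in phf1 (median 47.8). Its log2 fold change was 1.25 (SE 0.41, adjusted p = 0.23, edgeR), but it was -0.07 in low P against 1.34, 2.38 and 1.44 in medium P, high P and low+P. The highest Col-0 value was library A of low P. NLA, a ubiquitin ligase that removes PHT1 proteins, was at 0.69 (adjusted p = 0.29, edgeR) and positive in every regime.

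The transcription factors PHR1 and PHL1 had log2 fold changes of 0.14 and 0.28 (adjusted p = 0.49 and 0.60, edgeR). SPX2 and SPX4, further SPX sensors, were at 0.26 and 0.18, and PHO2, an E2 conjugase that turns over phosphate transporters, at -0.38. None of these had an unadjusted p below 0.05, and PHR1 overlaps a gene on the opposite strand in a library that keeps no strand. The same holds for NLA, GDPD1, PAP10, WRKY33, ELF3, UGP3, MCC1, PDIL2-1, PSAN, RAB18, AT1G15030, AT3G50190, AT3G52040 and AT5G60390, so their counts may include reads of the overlapping gene.

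Of 13 genes of membrane lipid remodelling, by which plants replace phospholipids with sulfo- and galactolipids, 12 were tested. At an unadjusted p below 0.05 there were 3, all on the higher side (25%, against 5.76% of all genes). These were GDPD1, a glycerophosphodiester phosphodiesterase (log2 fold change 0.92), SQD1, of sulfolipid synthesis (0.45), and MGD3, a galactolipid synthase (1.12), and each was positive in all 4 regimes with an adjusted p between 0.26 and 0.31 in edgeR. The list as a whole was even, with 6 members on either side and a median of -0.0012. Of 10 phosphatases and RNases 7 were tested, 5 on the lower side. PAP10, a purple acid phosphatase of the root surface that starvation induces, was at 0.497 to 8.29 CPM in Col-0 and 0.257 to 7.59 CPM in phf1, with a log2 fold change of -1.50 (SE 0.48, adjusted p = 0.22, edgeR) and negative in all 4 regimes.

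IPS1, a non-coding RNA that sequesters miR399 and is among the most strongly starvation-induced transcripts of Arabidopsis, was added to the description after its values were seen. In Col-0 it was at 23.6, 0.307 and 0.324 CPM in low P, 0, 0.612 and 0.541 in medium P, 0.422, 0.455 and 0 in high P, and 0.135 and 0 in low+P. In phf1 it was at 15.6, 16.2 and 10.7 CPM in low P, 31.2, 10.1 and 9.15 in medium P, 6.94, 9.35 and 42.4 in high P, and 22.5 and 12.9 in low+P. All 11 phf1 libraries and 1 Col-0 library, library A of low P, thus had 6.94 CPM or more, and the other Col-0 libraries had 0.612 or less.

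In edgeR the log2 fold change of IPS1 was 4.04 (SE 0.88, adjusted p = 0.15). Without Col-0 low P library A, the only Col-0 library above 0.612 CPM, it was 5.82. Since the library was singled out by its IPS1 value, the p of that fit lends no support and is not given. That library also held the highest Col-0 levels of SPX1 (117 CPM) and At4 (1059 CPM). The 3 phr1 phl1 libraries had 23.1, 14.4 and 18.6 CPM of IPS1, of which the last is the library labelled phr1 phl1 low+P. Whether all counts at IPS1 in the mutant lines come from the native gene was not tested. At4, a relative of IPS1, was at 24.5 to 1059 CPM in Col-0 (median 168) and 179.6 to 1763 CPM in phf1 (median 421), with a log2 fold change of 1.33 (SE 0.46, adjusted p = 0.25, edgeR) and positive in every regime.

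A list of 192 PSR markers, defined in earlier work in seedlings in vitro and held here without being complete, was spread evenly over both sides. Of the 163 tested, 80 lay on the higher and 83 on the lower side with a median of -0.01, and 20 were higher and 9 lower at an unadjusted p below 0.05 (12.3% and 5.52%, against 5.76% and 6.33% of all genes). All 4 regimes were on the higher side for 19 and on the lower side for 15. Besides PHT1;2, the members of smallest p were AT4G28260 (0.41), UGP3, a plastid UDP-glucose pyrophosphorylase of sulfolipid synthesis (0.34), and MCC1, an acetyltransferase (-0.63), with adjusted p of 0.16, 0.16 and 0.18 in edgeR.

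**Figure D4:**
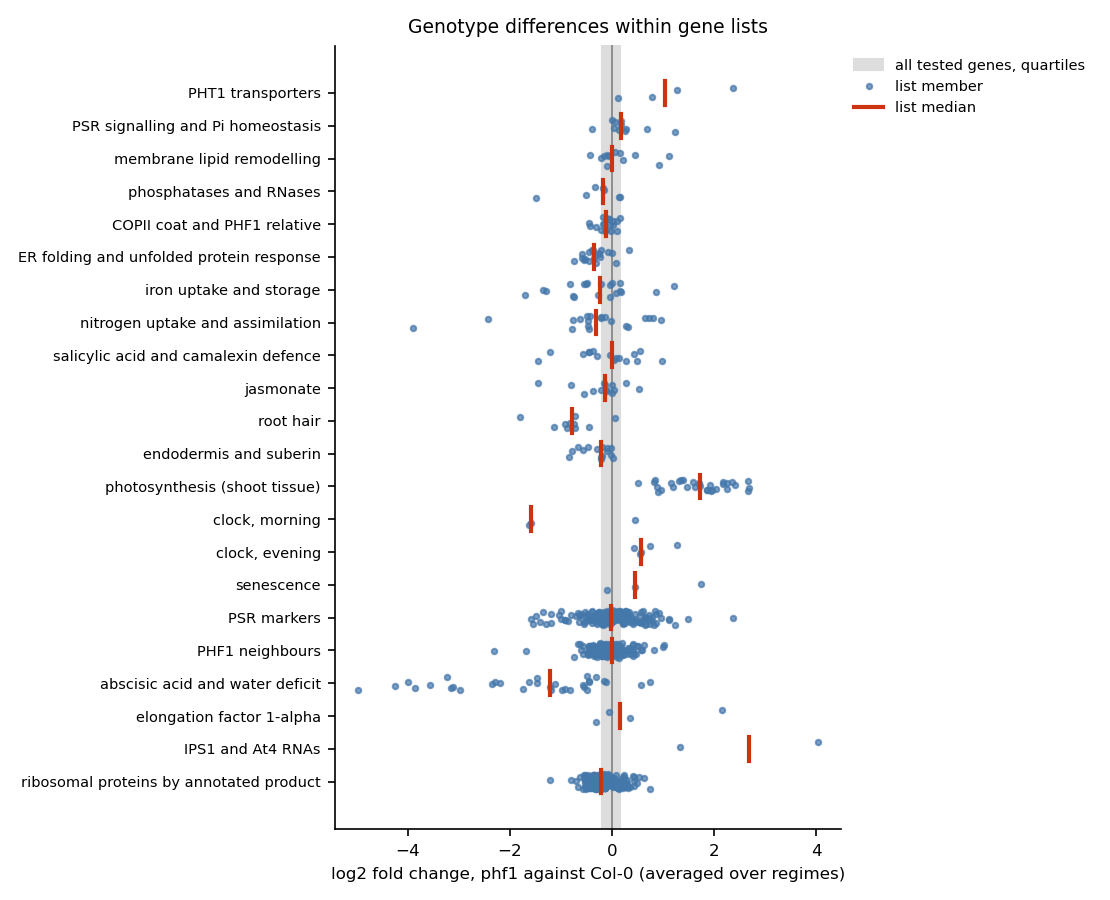
Log2 fold change of phf1 against Col-0, averaged over the regimes, for the tested members of each gene list (blue points) with the list median (red bar), and the quartiles of all tested genes (grey band). The photosynthesis list lies wholly above zero with a median of 1.73 and the abscisic acid and water deficit list mostly below with a median of -1.21, while the PSR markers centre on zero.

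Lists around the function of PHF1 held no gene called in edgeR. Of 21 genes of the COPII coat and its relatives, which form the vesicles that leave the ER, 19 were tested. Lower at an unadjusted p below 0.05 was 1 (5.26%, against 6.33% of all genes). This was SAR1_2, a SAR1 GTPase, with a log2 fold change of -0.45 (adjusted p = 0.32, edgeR). The list median was -0.11. Of 19 tested genes of ER protein folding and the unfolded protein response 17 lay on the lower side with a median of -0.34. At an unadjusted p below 0.05 there were 4 lower (21.05%, against 6.33% of all genes). These were the chaperones BIP1 (-0.53), BIP2 (-0.75) and HSP90.7 (-0.58) and the disulfide isomerase PDIL2-1 (-0.34), with adjusted p between 0.31 and 0.41 in edgeR. BIP1 and BIP2 have 23.5% and 24.1% of their exonic 50-base stretches in common with other positions in the genome, so their levels are uncertain. By regime the median of that list was -0.30 in low, -0.42 in medium, 0.19 in high P and -1.03 in low+P, so high P went the other way.

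Genes flanking PHF1 on its chromosome were listed as a check on differences confined to the surroundings of the mutated locus. Of the 149 tested neighbours 76 were on the higher and 73 on the lower side, with a median of 0.00042. At an unadjusted p below 0.05 there were 10 higher and 13 lower (6.71% and 8.72%, against 5.76% and 6.33% of all genes). The members of smallest p were STV1, a ribosomal protein of the large subunit (-0.35), SULTR3;1, of the sulfate transporter family (-2.31), AT3G52040 (-0.57) and ACX4, an acyl-CoA oxidase of fatty acid breakdown (0.50), with adjusted p of 0.16, 0.18, 0.19 and 0.19 in edgeR. DESeq2 called 2 of the 149 neighbours higher and 3 lower, against 1.41% and 1.55% of all genes.

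No gene of the other nutrient and defence lists passed the test in edgeR. The shares at an unadjusted p below 0.05, on the higher and the lower side, were 5% and 5% in iron, 5% and 15% in nitrogen, 12.5% and 0% in salicylic acid and camalexin and 0% and 14.3% in jasmonate genes, against 5.76% and 6.33% of all genes. In iron uptake and storage 20 genes were tested, and NAS4, of nicotianamine synthesis, was at 1.22 and FER3, a ferritin, at -0.74. In nitrogen uptake and assimilation 20 were tested with 14 on the lower side. The list median was -1.60 in low, 0.75 in medium and 0.06 in high P and -0.29 in low+P, so its sign was not the same in every regime. The nitrate transporters NRT2.4 (-3.89) and NRT2.2 (-2.43) and the glutamine synthetase GLN1;3 (-0.78) had an unadjusted p below 0.05, but NRT2.4 was at 0 CPM in most libraries of both genotypes and highest in Col-0 library C of low P at 36.2 CPM. HHO2, a repressor linking nitrogen and phosphate supply, was at 0.73 and positive in every regime (adjusted p = 0.22, edgeR).

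In defence, 16 salicylic acid and camalexin genes were tested, 8 on either side, with a median of 0.0041. ICS1, of salicylic acid synthesis, was at 0.99 and WRKY33 at 0.55, but WRKY33 was at -0.43 in low P. In the jasmonate list VSP1 was at -1.45 and JAZ3 at -0.55. Root hair genes lay on the lower side in 9 of 10, with LRX2, a cell wall protein of root hairs, at -1.80. Lower at an unadjusted p below 0.05 was 1 of the 10 (10%, against 6.33% of all genes). The list median was -2.29 in low, -0.27 in medium and -0.52 in high P but 0.83 in low+P, so 1 regime was on the other side, and 1 member kept its sign in all 4 regimes. The adjusted p of each gene named from these lists was at least 0.21 in edgeR. Fewer root hair cells and less RNA of a gene per cell cannot be told apart in whole roots. Summed root hair counts ran from 6.96 to 613 CPM in Col-0 and from 4.69 to 301 CPM in phf1, and in low P of Col-0 they were 6.96, 18.7 and 613 CPM. Of 15 endodermis and suberin genes tested 14 lay on the lower side, with a median of -0.21 and none at an unadjusted p below 0.05. As markers of roots they had a sum of 247 to 1088 CPM in the 22 libraries. Not every member was detected in each, and CASP4 was at 0 CPM in Col-0 medium A and phf1 low B.

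Photosynthesis genes, which mark green tissue and were listed as a check on the root label, stood on 1 side. All 31 tested lay on the higher side in phf1, 30 of them at an unadjusted p below 0.05 (96.8%, against 5.76% of all genes) and 24 in all 4 regimes (against 10.5% of all genes). Their median was 1.73 on the log2 scale. None passed the adjusted threshold in edgeR, while DESeq2 called 22 of the 31 higher, against 1.41% of all genes. The light-harvesting gene LHCB2.2 was at 0.204 to 2.76 CPM in Col-0 and 0.514 to 45.0 CPM in phf1 (2.67, SE 0.62, adjusted p = 0.15, edgeR). LHCB2.2 has 29.5% of its exonic 50-base stretches in common with other positions in the genome. The photosystem I genes PSAD1 (2.26), PSAL (2.18) and PSAN (1.2) had adjusted p of 0.15 to 0.16 in edgeR.

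By regime the median of the photosynthesis list was 0.51 in low, 3.05 in medium and 2.09 in high P, with 1.12 in low+P. No listed gene had a regime-dependent difference at an adjusted p below 0.1 in edgeR, and for PSAD1, PSAL, PSAN and LHCB2.2 the interaction had an adjusted p of 0.9995. That does not show that the difference was alike in the regimes. PSAN was at 2.34 in medium P against 0.56 in low P and 0.43 in low+P, with an unadjusted interaction p of 0.039 in edgeR. Counts of the list summed to 144 to 457 CPM in Col-0 (median 305) and 236 to 3423 CPM in phf1 (median 599.6). In medium P all 3 phf1 libraries (2042, 1398.5 and 1567 CPM) exceeded every Col-0 library of any regime, whereas in high P library A of phf1 was at 3423 CPM and libraries B and C at 399 and 238 CPM. The part of green tissue in the other differences was not tested beyond a covariate, and with the list's score in the fit AT5G35760 and AT1G07920 were the only genes called.

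**Figure D5:**
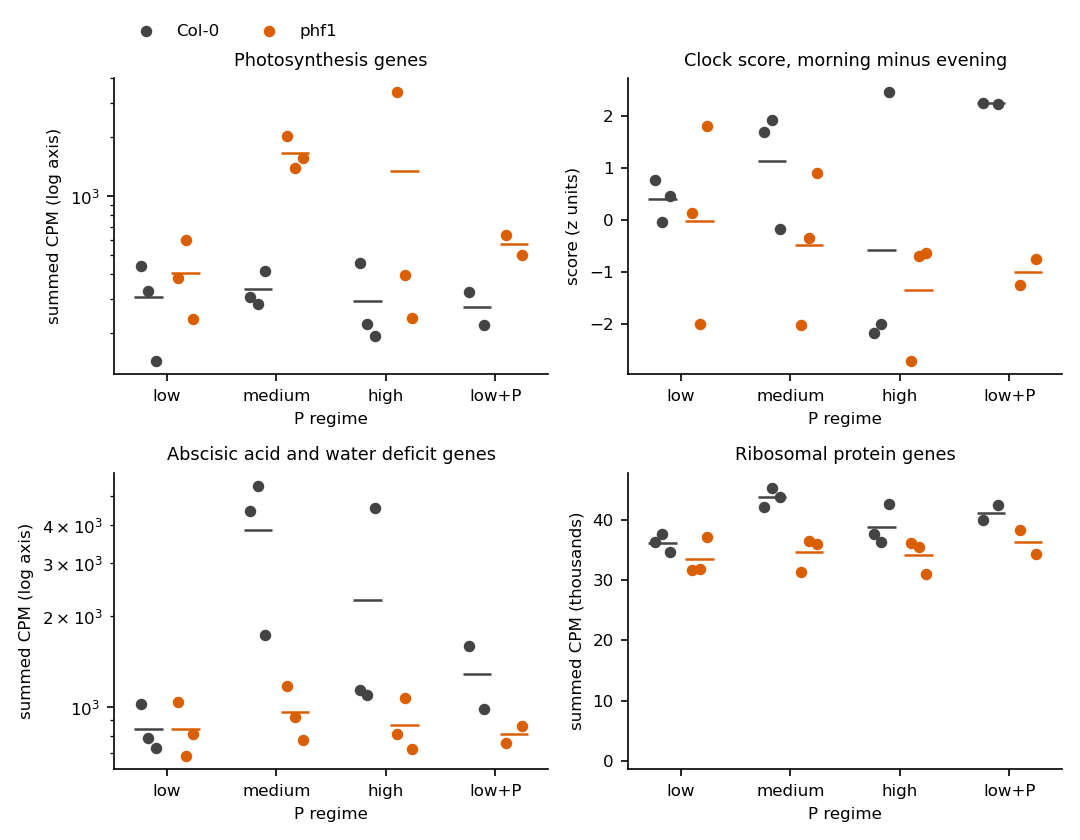
Summed CPM of photosynthesis genes, of abscisic acid and water deficit genes (both on log axes) and of ribosomal protein genes, and the clock score, in each of the 22 libraries by regime, with Col-0 in grey, phf1 in orange and bars for group means. The photosynthesis sum is highest in phf1 medium P and in 1 phf1 high P library at 3423 CPM, and the water deficit sum is highest in 3 Col-0 libraries of medium and high P at 4457 to 5385 CPM.

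Clock genes were listed as a mark of the hour of harvest, and none passed the test. The morning genes LHY and CCA1 had log2 fold changes of -1.63 (SE 0.62, adjusted p = 0.30) and -1.58 (SE 0.63, adjusted p = 0.32), whereas the third morning gene, PRR9, was at 0.45 (SE 0.47, adjusted p = 0.73) and has 41.1% of its exonic 50-base stretches in common with other positions. The evening genes ELF3, TOC1 and GI had log2 fold changes of 0.56, 0.57 and 0.43 (adjusted p between 0.25 and 0.40, edgeR). CCA1 was at 0.16 in low P and between -2.76 and -1.78 in the other regimes. A clock score, the mean z-score of the morning genes minus that of the evening genes, ran from -2.17 to 2.47 in Col-0 (median 0.78) and from -2.70 to 1.82 in phf1 (median -0.68). Samples were taken in random order according to the methods, and the part of harvest time in the other results was tested only as a covariate: with the clock score in the fit, AT5G35760 and AT1G07920 alone were called.

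Abscisic acid and water deficit genes were listed after their values were seen, so the list is a description only. Of 33 tested 31 lay on the lower side in phf1, 22 at an unadjusted p below 0.05 (66.7%, against 6.33% of all genes) and 17 in all 4 regimes (against 11.1%), with a median log2 fold change of -1.21 that was -0.17 in low, -2.05 in medium and -1.30 in high P and -1.15 in low+P. RD29A, a dehydration marker, was at 17.9, 12.9 and 7.12 CPM in low P, 396, 842 and 141 in medium P, 68.4, 7.74 and 299 in high P, and 145 and 20.5 in low+P of Col-0, against 2.52 to 59.9 CPM in phf1. Its log2 fold change was -3.15 (SE 0.69, adjusted p = 0.15 in edgeR and 0.00011 in DESeq2).

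The late-embryogenesis and dehydrin genes LEA4-5 (-4.97), RD29B (-4.25), RAB18 (-3.99), ERD10 (-1.62) and COR47 (-1.11) were negative in every regime, with adjusted p of 0.15 to 0.18 in edgeR. In high P, however, LEA4-5, RD29B and RAB18 were high only in Col-0 library C, at 106, 70.6 and 180 CPM. They were at 0.911 CPM or less in Col-0 libraries A and B, and at up to 2.06, 3.70 and 8.29 CPM in phf1. In low P all 3 genes were at 0 CPM in Col-0 library C. In medium P they were at 4.61, 4.61 and 26.6 CPM in phf1 library A, above Col-0 library A at 3.72, 1.33 and 6.63 CPM. The other phf1 libraries of medium P had 0.345 CPM or less. HAI1, a phosphatase of abscisic acid signalling, was at -2.97 but positive in low P, and NAC055 was at 0.75. Counts of the list summed to 726 to 5385 CPM in Col-0 and 688 to 1168.5 CPM in phf1. The 3 highest were the Col-0 libraries medium A, medium B and high C, at 4457, 5385 and 4553 CPM, and their clock scores were 1.69, 1.93 and 2.47. The Col-0 libraries low+P A and B had clock scores of 2.27 and 2.23 with sums of 1588.5 and 985 CPM. With the clock or the photosynthesis score in the fit, 6 or 7 of these genes were lower at an unadjusted p below 0.05. PUB19, the called ligase of this pathway, was likewise highest in medium A and B and high C of Col-0.

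Ribosomal protein genes, taken by their annotated product after values were seen, lay mostly on the lower side. Of 293 tested 237 had a negative log2 fold change, 106 at an unadjusted p below 0.05 (36.2%, against 6.33% of all genes) against 14 higher, and 114 were lower in all 4 regimes (against 11.1% of all genes), with a median log2 fold change of -0.20. With the clock or the photosynthesis score in the fit the 106 became 49 or 40. AT1G70600 was the only member called in edgeR, and DESeq2 called 47 lower and 4 higher, against 1.55% and 1.41% of all genes. Summed counts ran from 34732 to 45306 CPM in Col-0 (median 39979) and from 31035 to 38361 CPM in phf1 (median 35502). The ranges overlapped in low P, and in medium P, high P and low+P every Col-0 library exceeded every phf1 library.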

How the data were processed

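Non-stranded poly(A) RNA-seq libraries of roots were processed by the authors. Per the submitters' processing notes, bcl2fastq 2.20.0, FastQC 0.11.7, Trimmomatic 0.36, HISAT2 2.1.0 and featureCounts of Subread were used with the TAIR10 genome, and the deposited values are raw counts per gene for 27206 nuclear protein-coding genes. How reads with several positions were counted is not given in the sources used here. Column names give the group only.

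The 22 Col-0 and phf1 libraries were fitted together in edgeR 4.0.16 (R 4.3.3), with default low-count filtering (18429 genes kept), TMM factors, regime and genotype as terms, and Benjamini-Hochberg adjustment over all genes tested. Fold changes used a prior count of 0.125. Effects within regimes came from a fit of the 8 groups and the interaction from an F test. Totals ran from 2368981 to 7408960 counts, so in the shallowest library 1 CPM is a few reads. The closest pair of libraries of a group differed by more than sampling noise, and none were merged. Scripts were tested on simulated data. TAIR10.1 supplied the names and overlaps of genes (26719 identifiers matched).

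The named genes were PHF1, up to 12 called genes in each direction with 1 sign in the 4 regimes, or, where fewer than 6 were called in a direction, the 6 of smallest p with 1 sign, all tested PHT1 and PSR signalling members where described, and in other lists the called members or otherwise up to 4 of smallest p. IPS1, At4, the elongation factor copies, the water deficit and ribosomal protein lists, AT1G17160 and AT3G50190 were chosen after their values were seen. The comparison, members and lists were chosen with earlier results of these data known. Alternatives used DESeq2 1.42.0, limma 3.58.1 and the settings below.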

Additional observations from a re-analysis of the deposited data

Results flagged for a closer look

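AT1G07920 was flagged by libraries that the comparison did not use. In the 3 phr1 phl1 libraries it was at 239.6, 188.6 and 233.6 CPM, the last from the one labelled phr1 phl1 low+P, and the lowest of them exceeded the highest of the 11 Col-0 libraries, 103 CPM in low P library C. The phf1 libraries ran from 197 to 292 CPM. Both mutants are described as being in the Col-0 background.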

How the results depend on the processing

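No paired analysis was possible because the deposited columns carry neither a replicate number nor a plot, although the labels give both for the samples.

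The count of 5 called genes (2 higher, 3 lower, 5 effects that hold in every regime with 1 sign, 0 listed) held within 1.5 times with robust dispersion, RLE factors, no filter, a filter at 1 CPM and a threshold of 0.05. It became 586 with DESeq2 (279 higher, 307 lower, 517 with 1 sign, 43 listed), 964 with limma voom and sample weights (390, 574, 797, 36), 45 with no regime covariate (21, 24, 43, 10), 19 with all 25 libraries (6, 13, 19, 0), and 126 without the low regime (75, 51, 126, 19). With 8 equally weighted group means it was 4 higher and 1 lower. It was 2 (0 lower, 2 with 1 sign) with the clock score, the photosynthesis score or both as covariates and without the medium regime, and 3 (1 lower, 3 with 1 sign) without low+P or without the 2 libraries of lowest weight, Col-0 low C and medium A. The 2 score covariates together and the omission of those 2 libraries were chosen after seeing the data. The interaction count of 0 became 14 with DESeq2's likelihood ratio test.

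With single libraries left out, between 2 and 214 genes were called, 2 to 89 higher, 0 to 125 lower, 2 to 210 with 1 sign and 0 to 17 listed. The counts were 214 without phf1 high B, 97 without phf1 low C, 17 without Col-0 low A, 16 without Col-0 high B and 8 without Col-0 high A. They were 3 without Col-0 low C or phf1 medium C, high A or low+P A, and 2 without Col-0 medium A, high C or low+P A or phf1 medium A, medium B, high C or low+P B. PHF1 stayed between -0.51 and -0.17. The cause was not tested.

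In sign, the log2 fold change of PHT1;4 turned to -0.56 with voom, -0.0051 with all 25 libraries, -0.0085 without the 2 libraries of lowest weight and -0.69 without high P, and ranged from -0.33 to 0.44 with single libraries left out. AT1G07940 turned to 0.079 with voom, 0.11 with the clock score, 0.15 with the photosynthesis score, 0.16 with both, 0.057 without the 2 libraries of lowest weight and 0.022 without low+P, and ranged from -0.10 to 0.073. LHY (0.11 and 0.16) and CCA1 (0.037 and 0.26) turned with the clock score alone and with both scores, which are made from these genes. With the clock or photosynthesis score as a covariate, the numbers at an unadjusted p below 0.05 were 17 and 0 for photosynthesis (higher), 6 and 7 for water deficit (lower) and 49 and 40 for ribosomal proteins (lower). The 0 for photosynthesis follows from the score being made of the same genes.

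Depth limits genes of a few CPM.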
